A study of Rattus norvegicus with 88 samples.

Results

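Bdnf encodes brain-derived neurotrophic factor, a secreted growth factor of neurons, and Ntrk2 encodes TrkB, the receptor tyrosine kinase that binds it. The pair is described here in Heterogeneous Stock (HS) rats, in the infralimbic cortex (IL), which belongs to the medial prefrontal cortex. Both genes were chosen by name, by the identifiers ENSRNOG00000047466 (Bdnf) and ENSRNOG00000018839 (Ntrk2), and they were 2 of the 17252 genes in the expression table.

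The BDNF protein is released by neurons, and its transcription rises with neuronal activity. The rat gene has several alternative first exons, each with its own promoter, that are spliced to one shared coding exon. TrkB exists as a full-length form with a kinase domain, found mainly in neurons, and as truncated forms without it, abundant in astrocytes. Binding of BDNF to the full-length receptor starts signalling cascades that support survival and synaptic plasticity. Each gene had a single value per library, so alternative first exons of Bdnf and full-length or truncated forms of Ntrk2 were not separated.

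Polyadenylated RNA from IL tissue of single rats was sequenced as 1 library per rat. HS rats are an outbred population derived from inbred founder strains. The rats of the study were untreated adults kept several to a cage, with no test of behavior and no drug beforehand, and the labels separate them only by sex and rat batch. The 81 libraries analysed came from 40 females and 41 males, with 16 rats in batch 2, 25 in batch 3, 24 in batch 4, 1 in batch 5 and 15 in batch 6.

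The table's columns follow the order of rat names, and that order starts over, which gives 3 column runs of 22, 16 and 43 libraries. Rat batch and column run overlapped. Batch 2 had 15 rats in run 1 and 1 in run 2, batch 3 had 7, 15 and 3 rats in runs 1, 2 and 3, and all rats of batches 4, 5 and 6 were in run 3. The labels do not say what a rat batch or a column run was. Values are log2(adjusted read count + 1), with counts brought to a common upper quartile, and adjusted counts are given where they are easier to read. Depth here means the reads counted on the genes of the table, not all reads sequenced, and was estimated from the spacing of low values. It was 5.99 M reads (M, mega) in male 14 of batch 4 and 12.2 to 31.9 M in the other libraries, with a median of 17.3 M. At these depths an estimated 200 to 2438 reads per library fell on Bdnf and 3826 to 21398 on Ntrk2. The tissue could not be checked against cell type markers, because no identifier of the table could be paired with a gene symbol.

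To show alternative promoters that the single Bdnf value does not separate, the bases just before 4 of its 6 RefSeq transcription starts are printed. Each stretch is 60 bases long and read 5′ to 3′ on the plus strand of chromosome 3 (RefSeq, build GRCr8, which is not the build the libraries were mapped to). The remaining windows overlap each other and are left out. Capitals mark the only match to TGACG, the half-site of the cyclic AMP response element, which reads as CGTCA on this strand and begins 35 bases before the fourth start.
Start 1, chr3:116619573-116619632: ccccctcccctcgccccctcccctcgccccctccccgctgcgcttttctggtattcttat
Start 2, chr3:116620775-116620834: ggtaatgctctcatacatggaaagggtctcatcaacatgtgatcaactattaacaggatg
Start 3, chr3:116621911-116621970: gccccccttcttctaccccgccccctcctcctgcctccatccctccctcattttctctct
Start 4, chr3:116637798-116637857: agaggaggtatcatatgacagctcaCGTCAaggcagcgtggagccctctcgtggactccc

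The search covered the 250 bases before each start on both strands. The half-site TGACG was found before 1 of the 6 Bdnf starts and in 18.2% of all 33469 rat windows of that length. The full element TGACGTCA, which contains the half-site, was before 0 of the 6 starts and in 1.59% of all windows. The E-box CACGTG was before 0 of the 6 and in 5.59% of all windows. These are matches of letters, not measured binding sites, and which of the starts was used in a library cannot be read from a value per gene. RefSeq lists 11 transcripts of Bdnf, 10 of them curated, and 14 of Ntrk2, 2 of them curated.

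Bdnf varied widely between rats and Ntrk2 little. Over the 81 rats, Bdnf had a lowest value of 8.71 in male 26, a median of 9.94 and a highest value of 10.74 in male 32 on the log2 scale. These correspond to 417, 981 and 1708 adjusted counts, a 4.09-fold range. Its mean log2 value was 9.87 ± 0.43 (SD, n = 81). For Ntrk2 the lowest value was 12.86 in male 38, the median 13.44 and the highest 13.72 in female 29. In adjusted counts these were 7457, 11113 and 13463, a 1.81-fold range, and the mean log2 value was 13.43 ± 0.13 (SD, n = 81). The lowest and the highest rat of one gene were not those of the other. Because longer transcripts collect more reads, the level of one gene is not compared with that of the other. In bulk tissue, fewer cells of a type and less RNA per cell cannot be told apart, which holds for every difference given here.

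**Figure D1:**
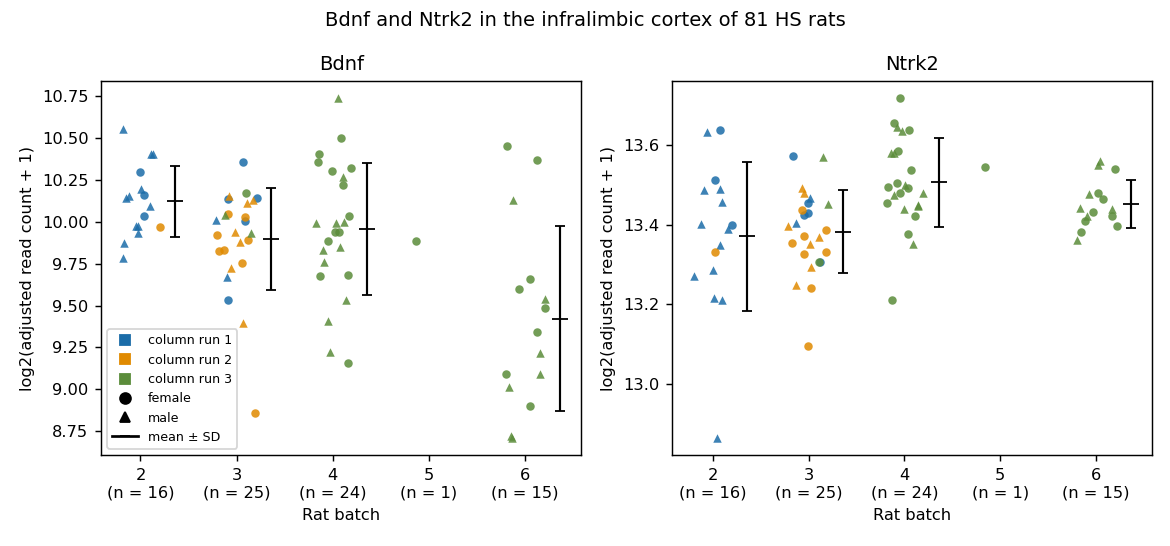
Log2 of the adjusted read count plus 1 of Bdnf (left) and Ntrk2 (right) by rat batch, 1 point per rat, with color for the column run, shape for sex, and mean ± SD beside each batch of more than 1 rat. The Bdnf values of batch 6 reach from 8.71 to 10.45 with a mean of 9.42, below the means of the other batches, whereas its Ntrk2 values lie closely around 13.45.

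The spread of both genes between rats was far wider than the counting of reads would give. At the estimated depth, counting reads alone would give an SD of 0.050 for Bdnf and 0.014 for Ntrk2 on the log2 scale. After rat batch, column run and sex were removed, the SD between rats was 0.37 for Bdnf, 7.52 times the counting SD. The SD of Ntrk2 after the same adjustment was 0.12, 8.60 times its counting SD. No rat had replicate libraries, so measurement noise other than counting could not be estimated. Any such noise is part of the SDs between rats given here. Among the 13048 genes of mean log2 5 or more, whose median SD was 0.18, the SD of Bdnf was at percentile 89.8 and that of Ntrk2 at percentile 17.2. Bdnf was thus among the more variable genes of its table and Ntrk2 among the less variable. These percentiles, and those by batch below, were not matched for level. The mean log2 value of Ntrk2 was 13.43, against 8.89 for the median gene. A spread measure that gives less weight to distant rats, the scaled median absolute deviation, was 0.25 for Bdnf and 0.079 for Ntrk2, against 0.16 for the median gene.

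The spread of each gene also varied between batches, Bdnf being widest and Ntrk2 narrowest in batch 6. After column run and sex were removed within each batch, the SD of Bdnf was 0.22 in batch 2, 0.31 in batch 3, 0.39 in batch 4 and 0.53 in batch 6. The corresponding SDs of Ntrk2 were 0.18, 0.095, 0.11 and 0.061. The value of batch 2 includes male 38 at 12.86, while the next lowest rat of that batch, male 18, was at 13.21. The median gene stayed between 0.16 and 0.20 in all 4 batches. Bdnf therefore moved from percentile 58.8 of SD in batch 2 to percentile 96.8 in batch 6, and Ntrk2 from percentile 46.1 to 1.49. These are descriptions of each batch, and the difference in spread was not tested.

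**Figure D2:**
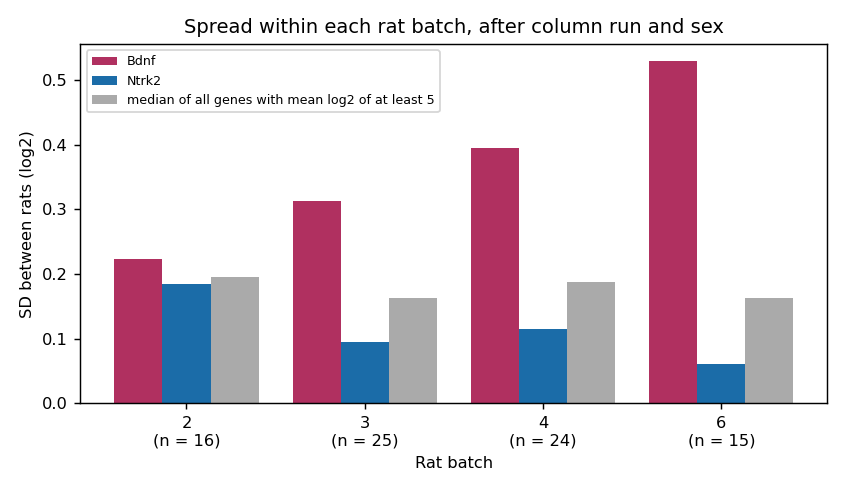
SD between rats of the log2 values of Bdnf, Ntrk2 and the median gene within rat batches 2, 3, 4 and 6, after column run and sex. Bdnf bars run from 0.22 in batch 2 to 0.53 in batch 6, and Ntrk2 bars from 0.18 to 0.061.

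Between the sexes no difference was detected for either gene. Females had Bdnf values from 8.86 to 10.50 with a median of 9.95, and males from 8.71 to 10.74 with a median of 9.94. The sexes overlapped over almost the whole range. With rat batch as a covariate, Bdnf in males minus females was -0.13 with a standard error (SE) of 0.083 (adjusted p = 0.768, limma, Benjamini-Hochberg over 17252 genes). The same test was passed by 34 genes, 0.197%.

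Ntrk2 was at 13.10 to 13.72 in females, with a median of 13.43, and at 12.86 to 13.64 in males, with a median of 13.45. The ranges overlapped, and male 38 was the only male below the lowest female. The difference, males minus females, was 0.0012 (SE 0.028, adjusted p = 0.997, limma). The sign of this difference changed with several processing choices and carries no direction. The sex difference did not vary detectably with rat batch for either gene, with an interaction adjusted p-value of 0.996 for both (limma). No gene of the table passed the interaction test, 0%, against 531 at an unadjusted p-value under 0.05 and 1 gene with a pseudocount of 10. In batch 6, where Bdnf was lowest, females were at 9.61 ± 0.55 (SD, n = 8) and males at 9.20 ± 0.50 (SD, n = 7), and their ranges overlapped.

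Bdnf was lower in rat batch 6 than in the other large batches. The batch 6 rats had Bdnf values from 8.71 to 10.45 with a median of 9.34. In batch 2 the lowest, median and highest values were 9.78, 10.12 and 10.56, in batch 3 they were 8.86, 9.94 and 10.35, and in batch 4 they were 9.16, 9.96 and 10.74. The rat of batch 5 was at 9.88. The batches overlapped, but Bdnf was under 9.5 in 9 of 15 rats of batch 6, against 0 of 16, 2 of 25 and 3 of 24 rats in batches 2, 3 and 4. For batch 6 the mean log2 value was 9.42 ± 0.55 (SD, n = 15). The means of batches 2, 3 and 4 were 10.12 ± 0.21, 9.90 ± 0.30 and 9.96 ± 0.39 (SD, n = 16, 25 and 24). The limit of 9.5 was chosen after the values were seen.

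Within batch 6 the low values were not shared by all rats. Male 26 and male 7 had the fewest adjusted counts of Bdnf, 417 and 421, and the median rat had 648. At the other end, male 27, female 20 and female 27 had 1119, 1320 and 1398 adjusted counts, above the median of 981 over all rats. The other 12 rats of the batch had 808 or fewer. Depth in batch 6 was between 14.9 and 22.9 M reads, inside the range of the other batches.

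Over the 80 rats of 4 batches, with sex as a covariate, Bdnf differed between batches (adjusted p = 1.22e-05, limma F test), as did 57.6% of all genes. In pairwise fits, batch 6 minus batch 2 was -0.74 (SE 0.13, adjusted p = 4.67e-06, limma), where 40.8% of genes passed. Batch 6 minus batch 3 was -0.48 (SE 0.12, adjusted p = 0.00051, limma), where 49% of genes passed. For batch 6 minus batch 4 the difference was -0.54 (SE 0.12, adjusted p = 0.00631, limma), and only 3.53% of genes passed that test. Of the 3 pairs with batch 6, the last was thus the one in which few genes moved, and Bdnf was among them.

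In the remaining pairs no difference in Bdnf passed the threshold. Batch 3 minus batch 2 was -0.26 (SE 0.12, adjusted p = 0.246, unadjusted p = 0.0305, limma), where 0.962% of genes passed. Batch 4 minus batch 2 was -0.20 (SE 0.12, adjusted p = 0.187, limma), where 37.9% passed. Batch 4 minus batch 3 was 0.061 (SE 0.10, adjusted p = 0.657, limma), where 47.1% passed. In ascending order of Bdnf the batches were thus 6, 3, 4 and 2, and only batch 6 differed from its neighbour at the threshold. Adjusted p-values of these pairs are over genes, not over the 6 pairs.

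The Bdnf difference between batches 6 and 4 was also present within 1 column run. With column run as a further covariate, the batch difference of Bdnf had an adjusted p of 0.0137 (limma), in a fit in which 2.76% of genes passed. Within run 3, which held all rats of batches 4 and 6, the adjusted p-value was 0.0244 (limma), with 4.41% of genes called. Batch 6 minus batch 4 in run 3 was -0.54 (SE 0.14, adjusted p = 0.0246, limma), where 3.46% of genes passed. Batch 6 could hardly be compared with batches 2 and 3 within a run, because run 3 had 0 rats of batch 2 and 3 of batch 3. For those pairs the difference between batches and that between runs cannot be told apart here. Run 1 held batches 2 and 3. Batch 3 minus batch 2 there was -0.20 (SE 0.12, adjusted p = 1, limma), with 0% of genes called. Without batch 6 the adjusted p-value of the batch difference was 0.122 (limma). With depth as a covariate it was 4.07e-06 (limma).

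Ntrk2 showed a smaller difference on the log2 scale, between batch 4 and batches 2 and 3. The lowest, median and highest Ntrk2 values were 12.86, 13.39 and 13.64 in batch 2, and 13.10, 13.39 and 13.57 in batch 3. In batch 4 they were 13.21, 13.49 and 13.72, and in batch 6 they were 13.36, 13.44 and 13.56. The rat of batch 5 was at 13.54. All batches overlapped, with batch 4 lying slightly higher at a mean of 13.51 ± 0.11 (SD, n = 24). The means of batches 2, 3 and 6 were 13.37 ± 0.19, 13.38 ± 0.10 and 13.45 ± 0.060 (SD, n = 16, 25 and 15). The batch difference had an adjusted p-value of 0.00343 (limma), beside the 57.6% of genes that passed. With quantile normalization it was 1.45e-07, against 1.08e-05 for Bdnf (limma), and 9842 of 17252 genes passed.

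Batch 4 minus batch 2 was 0.14 (SE 0.040, adjusted p = 0.00511, limma), where 37.9% of genes passed, and batch 4 minus batch 3 was 0.12 (SE 0.035, adjusted p = 0.00227, limma), where 47.1% passed. Batch 6 differed from none of the others in Ntrk2, with adjusted p-values of 0.142, 0.148 and 0.511 against batches 2, 3 and 4 (limma). Batches 2 and 3 were 0.012 apart, with an adjusted p-value of 0.923.

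Unlike that of Bdnf, the call for Ntrk2 was lost with column run as a covariate, where its adjusted p-value was 0.666 (limma). The pairs behind the call, batch 4 against batches 2 and 3, could hardly be compared within a run, because run 3, which held all rats of batch 4, had 0 rats of batch 2 and 3 of batch 3. Batch 6 minus batch 4 in Ntrk2 was -0.055 both over all rats and within run 3. For Ntrk2 the difference between batches and that between runs cannot be told apart here.

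Column run itself, given rat batch and sex, was not associated detectably with either gene. The adjusted p-value was 0.606 for Bdnf and 0.346 for Ntrk2 (limma), whereas 16.8% of all genes passed. Batch 3 was the only batch with rats in all 3 runs. There Bdnf was at 9.98 ± 0.29 (SD, n = 7) in run 1, 9.83 ± 0.33 (SD, n = 15) in run 2 and 10.05 ± 0.12 (SD, n = 3) in run 3. Ntrk2 was at 13.44 ± 0.079, 13.34 ± 0.10 and 13.44 ± 0.13 in the same rats. Within batch 3 the adjusted p-value between runs was 0.529 for Bdnf and 0.175 for Ntrk2 (limma).

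Rat batch accounted for 28.4% of the variance of Bdnf and 19.4% of that of Ntrk2, against 19.3% for the median gene. Batch and column run together accounted for 29.7% of Bdnf, 23.1% of Ntrk2 and 25.2% of the median gene. Sex accounted for 0.527% of Bdnf and 0.290% of Ntrk2. The 2 genes differed more in how they followed the shared variation of the table. The first 5 principal components of all genes accounted for 54.3% of the variance of Ntrk2 but 26.04% of that of Bdnf, with 42.9% for the median gene. With 20 components the shares were 77.0% and 77.7%, against 69.4%. Ntrk2 followed the first component, which held 13.3% of the variance of the table, with r = 0.531, and Bdnf with r = -0.247. These are descriptions over 81 rats that share batches.

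The level of the ligand and that of the receptor were not detectably related across rats. Without adjustment, Pearson's r of Bdnf and Ntrk2 was -0.099 (permutation p = 0.381) and Spearman's rho was -0.128 (permutation p = 0.254) over 81 rats. After rat batch, column run and sex, r was -0.091 (permutation p = 0.344) and rho was -0.126 (permutation p = 0.254). The 95% interval of the adjusted r was -0.303 to 0.130. It made no allowance for the covariates removed and is therefore somewhat too narrow. Of 4 such correlations, computed with different sets of covariates, the smallest Benjamini-Hochberg adjusted p-value was 0.508 for r and 0.346 for rho. Without the 2 rats farthest from the Bdnf median, r was -0.063 (permutation p = 0.583).

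**Figure D3:**
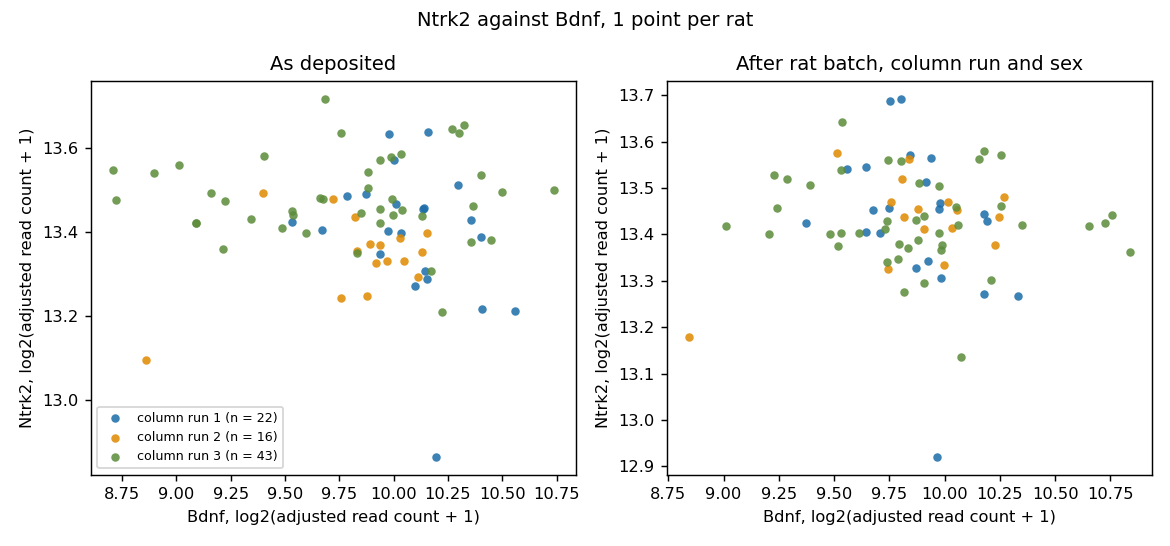
Ntrk2 against Bdnf, both as log2 of the adjusted read count plus 1, with 1 point per rat colored by column run, as deposited (left, r = -0.099) and after rat batch, column run and sex were removed (right, r = -0.091). The points form no sloping band, and on the left the 2 rats of lowest Ntrk2 are male 38 in run 1 at 12.86 and female 28 in run 2 at 13.10.

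Within column runs, Pearson's r was -0.314 in run 1, 0.380 in run 2 and -0.0071 in run 3 (n = 22, 16 and 43), and a difference between these 3 values was not detected (permutation p = 0.107). The positive value in run 2, where rho was -0.026, rested on 1 rat. Female 28 had the lowest Ntrk2 value of that run, 13.10, and also its lowest Bdnf value, 8.86, and without it r was -0.430 in the 15 remaining rats. In run 1, r was -0.346 without male 38. By rat batch, r was -0.357 in batch 2, 0.313 in batch 3, -0.011 in batch 4 and -0.463 in batch 6 (n = 16, 25, 24 and 15). Female 28 is also a rat of batch 3, where rho was -0.054. Within females r was 0.178 and within males -0.323 (permutation p = 0.0414). None of the 9 subsets passed adjustment, the smallest adjusted p-value being 0.266 for r and 0.179 for rho, and the difference between the sexes was not tested.

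Neither gene was thus prominent among the correlates of the other. The 13012 genes of mean log2 5 or more were ordered from the most positive to the most negative adjusted r. Ntrk2 was the 8092nd in the order for Bdnf, and Bdnf the 7991st in that for Ntrk2. The adjusted r of the pair, -0.091, lay between the percentiles 5 and 95 of all genes. These were -0.337 and 0.314 for r with Bdnf, and -0.423 and 0.533 for r with Ntrk2. Other genes did follow each of them, but no such count was made for further genes, so whether the numbers are unusual is not known. In limma fits of every other gene on the level of Bdnf, with rat batch, column run and sex as covariates, the slope passed for 1289 of 17251 genes, 7.47%, of which 572 (3.32%) were positive and 717 (4.16%) negative. For Ntrk2 the slope passed for 4337 genes, 25.1%, with 2413 (14%) positive and 1924 (11.2%) negative. Ntrk2 itself did not pass on Bdnf, with a slope of -0.029 (SE 0.038, adjusted p = 0.701, limma).

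Both counts depended on the covariates and rested in part on single rats or batches. With the first 5 components as covariates they were 741 for Bdnf and 100 for Ntrk2, and with the first 20 components 36 and 13. With no covariates they were 2747 and 7580. The count for Ntrk2 was 1879 without male 38, the rat of lowest Ntrk2, and 407 without rat batch 2, to which this rat belongs. Without batches 3, 4 and 6 it was 3759, 5237 and 4146, of 17251 genes in each fit. The count for Bdnf was 815 without male 14, the library of lowest depth, and 822 without female 27 of batch 6. It was 230 without batch 6 and 239 without batch 4, but 1444 without batch 2 and 1314 without batch 3. With median centring the split of the genes following Bdnf turned from 572 positive and 717 negative to 706 positive and 543 negative, so that neither sign can be called the more frequent.

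**Figure D4:**
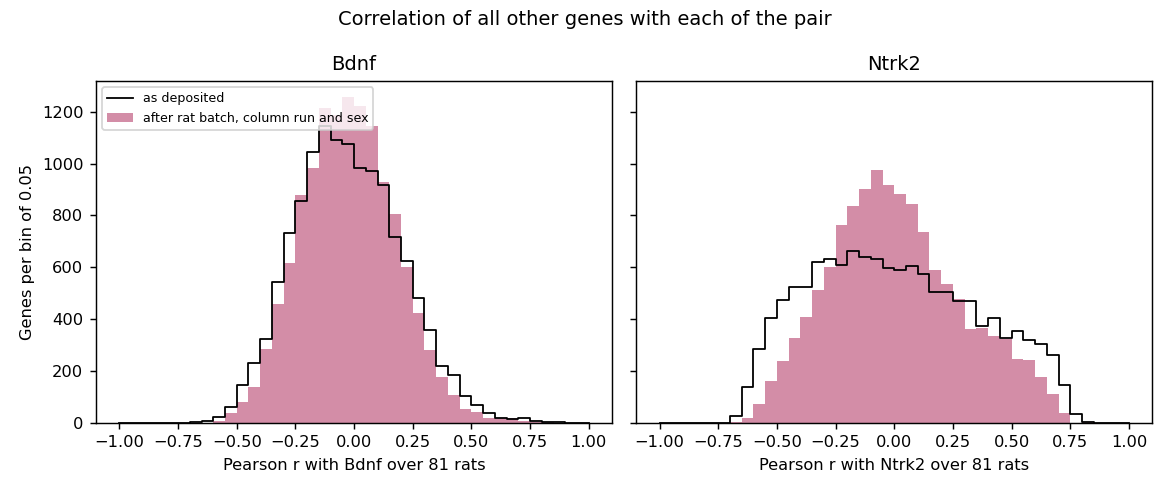
Number of genes per bin of 0.05 of Pearson's r with Bdnf (left) and Ntrk2 (right) over 81 rats, as deposited (line) and after rat batch, column run and sex (filled bars). Bdnf has 112 genes with r over 0.5 after adjustment, and the wider Ntrk2 distribution has 818.

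Counts of strong correlations show how adjustment acted on each gene. Before adjustment 168 genes had r over 0.5 with Bdnf and 94 had r under -0.5, and after it 112 and 46 did. Of the positive ones, 90 were in both sets, 53.6% of the first and 80.4% of the second. The negative sets shared 26 genes, 27.7% and 56.5% of them. For Ntrk2 the numbers were 1421 and 854 before and 818 and 253 after, with 788 positive genes in both sets, 55.5% and 96.3%. Without male 38 the numbers for Ntrk2 after adjustment fell to 213 and 10. The numbers for Bdnf after adjustment were 99 and 23 without male 14, and 89 and 18 without female 27.

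The genes whose levels were most like those of Bdnf are named by identifier. For these genes and those of Ntrk2, each r within a column run or rat batch is of values as deposited, without adjustment. ENSRNOG00000014363 was the most positive before adjustment, with r = 0.86 over 81 rats, and had r = 0.81 and rho = 0.81 after it. Its log2 values lay between 10.06 and 11.12, and its slope on Bdnf was 0.46 (SE 0.039, adjusted p = 5.06e-15, limma). It followed Bdnf in every column run, with r = 0.80, 0.86 and 0.87, and in every batch of more than 1 rat, with r between 0.69 in batch 2 and 0.92 in batch 4. No single rat decided this value, since leaving out each in turn gave an adjusted r between 0.79 and 0.82. This gene and those named below were picked for their correlation over these same 81 rats. Their p-values, and their r within runs, within batches or without single rats, are thus descriptions and not separate support.

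ENSRNOG00000000521 was the most positive after adjustment, with r = 0.81 and rho = 0.78, from r = 0.86 before. It ranged more widely, between 5.88 and 8.88, with an SD over rats of 0.71 against 0.43 for Bdnf, and had a slope of 1.21 (SE 0.10, adjusted p = 2.68e-15, limma). Its r was 0.64, 0.83 and 0.88 in runs 1, 2 and 3. It was weakest in batch 2, where Bdnf varied least, at r = 0.48, and highest in batch 6, where Bdnf varied most, at r = 0.90.

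The most negative gene for Bdnf was ENSRNOG00000042029, with r = -0.70 before and -0.65 after adjustment, and -0.42, -0.67 and -0.76 in the 3 runs. The next after adjustment was ENSRNOG00000007102, with r = -0.60. On values as deposited, its r was -0.76 within run 3 but only -0.14 within run 2. Before adjustment the second was ENSRNOG00000018461, with r = -0.69, which had -0.59 afterwards. None of these genes followed Ntrk2 closely after adjustment, the highest |r| among the 5 being 0.30.

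**Figure D5:**
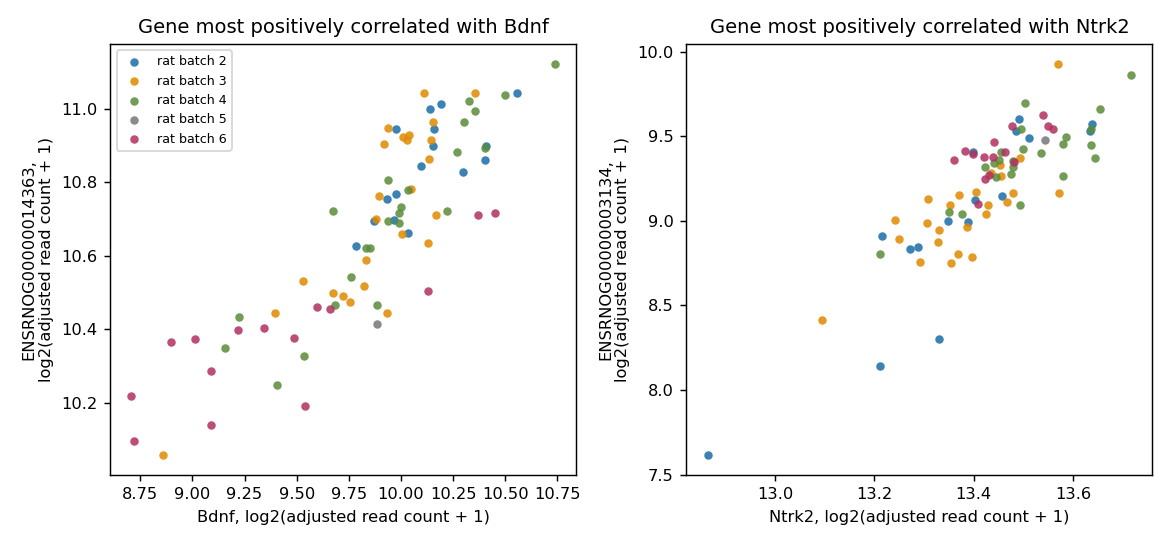
Log2 of the adjusted read count plus 1 of ENSRNOG00000014363 against Bdnf (left) and of ENSRNOG00000003134 against Ntrk2 (right), 1 point per rat, colored by rat batch, as deposited. On the left the rats of batch 6 extend to the low end of the same band (r = 0.86), and on the right the lowest point is male 38 (r = 0.85).

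Ntrk2 was followed most closely by ENSRNOG00000003134, with r = 0.85 before adjustment and r = 0.83 and rho = 0.71 after it. The slope of this gene on Ntrk2 was 2.15 (SE 0.17, adjusted p = 3.40e-16, limma), and its values spanned 7.61 to 9.93. Without male 38 the adjusted r was 0.77. Within runs, on values as deposited, r was 0.90, 0.65 and 0.72. ENSRNOG00000005479 was next, with r = 0.80 before and after and 0.76 without male 38. Within runs its r was 0.91, 0.80 and 0.65. Its slope was 2.27 (SE 0.19, adjusted p = 5.71e-15, limma). Both genes varied more than Ntrk2 on the log2 scale, with SDs over rats of 0.37 and 0.45.

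Among the negative correlates of Ntrk2, ENSRNOG00000001009 had r = -0.70 after adjustment and -0.61 without male 38. ENSRNOG00000021042 had r = -0.66 after adjustment, but rho was -0.47 and r was -0.53 without male 38. In run 3 its r as deposited was -0.22. Before adjustment the most negative were ENSRNOG00000003724 and ENSRNOG00000008891, both with r = -0.69, and in run 3 these had -0.44 and -0.22. All 6 genes named for Ntrk2, the positive ones included, had their largest |r| in run 1, the run that holds male 38. None of them followed Bdnf closely, the highest adjusted |r| being 0.22.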

How the data were processed

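The authors used cutadapt for trimming and RSEM with the Ensembl transcriptome for alignment and counting, applied an upper-quartile adjustment with DESeq2 and removed low genes and libraries, and they deposited log2 values of the adjusted count plus 1. The submitters' processing notes name the build Rnor_6.0. Tool versions were not given in the sources used here. Reads matching several genes are divided among them by RSEM. The 7 libraries marked as removed (of 88) were not analysed here.

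No count model was used, since the deposited values are adjusted and logged. To estimate depth, each library's summed adjusted counts were divided by the number of adjusted counts that 1 read was worth. That number, read from the spacing of low values, was within 1% of the truth in 97.5% of 40 simulated libraries. Turned back from the log scale, 100% of values under 100 were whole within 0.01. Models were fitted to all 17252 genes with limma 3.58.1 (R 4.3.3; lmFit, eBayes with an intensity trend), with Benjamini-Hochberg adjustment over all genes and a threshold of 0.05. The test for sex had rat batch as a covariate. The test for batch had sex as a covariate and left out the single rat of batch 5. Differences are on the log2(count + 1) scale. Permutation tests were two-sided with 100000 resamples, and for adjusted values Bdnf was permuted within the strata of the covariates. On simulated data with 200 genes shifted by 2 residual SDs, limma recovered 100% between the sexes with 17 other calls, 100% between batches with 5 others, and 91.5% between column runs with 6 others. With 200 genes given a slope of 1 residual SD, it recovered 100% on Bdnf and on Ntrk2, with 7 others each. The simulated noise was independent between genes and held no batch differences, unlike the data. Smaller shifts were not simulated. The recovery therefore does not show what the tests can detect at the size of the Bdnf sex difference, -0.13 against a residual SD of 0.37.

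The reference tables matched 0 of the identifiers to a symbol. A neurotrophin pathway list, an activity-regulated gene list and cell type markers were therefore not run, and the names Bdnf and Ntrk2 could not be checked against the identifiers. For the same reason other genes were named by identifier, by rule: the 2 most positive and the 2 most negative correlations with each gene, before and after adjustment, among genes of mean log2 5 or more, rows of identical values counted once. The genes, lists and column runs were chosen with earlier results of these data known. Rats are separate animals, and their numbers, given within each sex, are only names. Alternatives were a filter on low genes, other moderation, quantile normalization, median centring, a pseudocount of 10, inverse normal values, other covariates (none, depth, column run, the first 5 or 20 components), and leaving out batches, runs or single rats.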

Additional observations from a re-analysis of the deposited data

How the results depend on the processing

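Leaving out a single rat was added after the data were seen, as was the comparison of batches 4 and 6 within run 3. The batch difference of Bdnf lost its call with 20 components as covariates (adjusted p = 0.751, limma) and without batch 6 (0.122). Within run 1, which held no rat of batch 6, its adjusted p was 1, and it lay between 8.61e-07 and 7.78e-05 with each rat left out. That of Ntrk2 lost its call with 5 components (0.390), 20 components (0.814), without batch 4 (0.230) and with column run as a covariate (0.666, limma). Its adjusted p was 1 within run 1, 0.499 within run 3 and 0.385 for batches 4 and 6 within run 3 (limma), subsets that hold few or none of the pairs behind the call, and it was between 0.000869 and 0.00684 with each rat left out. The run difference of Ntrk2 passed with 5 components (adjusted p = 0.00503, limma).

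The sex difference of Bdnf, males minus females, turned to 0.18 with 20 components and to 0.13 within run 2. That of Ntrk2 turned to -0.00026 with median centring, -0.00052 with quantile normalization, -0.025 with 5 and -0.10 with 20 components, -0.023 without batch 3, -0.0042 without batch 6, -0.00079 with column run as a covariate, -0.014 with no covariate and -0.11 within run 1, and lay between -0.0064 and 0.013 with each rat left out.

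The number of genes following Bdnf was 781 with depth as a covariate, 741 with 5 and 36 with 20 components, 815 without the library of lowest depth, 239 without batch 4, 230 without batch 6, 2747 with no covariates, and 815 to 1642 with each rat left out, where the highest was without female 28. The number following Ntrk2 was 2811 with inverse normal values, 100 with 5 and 13 with 20 components, 407 without batch 2, 7580 with no covariates, and 1879 to 4690 with each rat left out. The slope of Ntrk2 on Bdnf turned to 0.0074 with 5 and 0.049 with 20 components.

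The SD of Bdnf was 0.43 without adjustment and 0.25 as a scaled median absolute deviation, and that of Ntrk2 was 0.13 and 0.079. The correlation of the 2 genes turned to 0.086 with 5 components removed, 0.380 within run 2, 0.313 within batch 3 and 0.178 within females. It was -0.323 within males and -0.232 with quantile normalization (permutation p = 0.0414 and 0.0375), and -0.189 to -0.067 with each rat left out. The cause of these changes was not tested. No paired analysis was possible because every library is from a different rat and the numbers only name rats.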
